A study of Mus musculus with 64 samples.

Results

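Binding of SOX2 and of β-catenin was compared in naive ESC, using the 3 SOX2 and the 3 β-catenin immunoprecipitated libraries of this condition out of 64 ChIP-seq samples in all. ChIP-seq sequences the DNA that is pulled down with an antibody against 1 protein, and a peak is a stretch of the genome where this DNA piles up above the local background. The 20000 best peaks of each of the 6 libraries, ranked by the deposited −log10 p-value, were merged into 62873 sites wherever they shared at least 1 bp. A target was taken to bind a site when at least 2 of its 3 libraries had a peak there. By this rule 7563 sites were bound by both targets (shared sites), 3723 had SOX2 and no β-catenin peak in any of the 3 lists (SOX2-only sites) and 3933 had β-catenin and no SOX2 peak (β-catenin-only sites). These were 12.0%, 5.92% and 6.26% of all merged sites. The other 47654 sites lay outside the 3 classes, most of them with a peak in 1 library alone.

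The study mapped SOX2, β-catenin, LEF1, TCF7L1 (labelled TCF3) and TCF7L2 (labelled TCF4) in 4 conditions with 3 biological replicates each. Naive ESC were wild-type mouse embryonic stem cells of the HM1 TetON line, the parent of the other lines used, brought back to naive pluripotency in 2i medium, which held the GSK3 inhibitor CHIR at 3 µM and the MEK inhibitor PD0325901 at 500 nM, and labelled as 72 h. CHIR switches on the WNT pathway, so WNT signalling was active by design in all 6 libraries. CEpiLC (caudal epiblast-like cells) were the same wild-type cells differentiated with FGF and LGK974, a blocker of WNT secretion, and then also with CHIR. SOX2-ON and SOX2-OFF cells came from a derived line that lacked its own Sox2 and carried a doxycycline-driven Sox2 transgene, differentiated in the same way with doxycycline at 1 µg/ml or without it. The study proposes that SOX2 binding still seen in SOX2-OFF cells is probably due to a little SOX2 protein persisting once doxycycline is withdrawn. Cells of every group were fixed with a protein cross-linker before formaldehyde, so DNA could be recovered through protein partners as well as through direct contact.

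SOX2, a transcription factor that pluripotent and neural cells share, binds short SOX sequences, often next to an OCT sequence bound by OCT4. β-catenin carries the WNT signal into the nucleus but does not bind DNA by itself, and reaches it through the TCF/LEF proteins, which recognise the TCF sequence. In naive ESC, TCF7L1 represses pluripotency genes when WNT is off, and GSK3 inhibition relieves this. A site may therefore hold β-catenin through a TCF sequence, hold SOX2 through a SOX sequence, or hold both proteins, and the comparison asked how often each occurred and at which genes.

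The following stretches of the mm10 (GRCm38) reference, plus strand, each span 201 bases centred on the median summit (the highest point of a peak) of the libraries that define the class. They show what the classes look like at the level of sequence. Capitals mark matches, on either strand, to the SOX sequence (CATTGT or CTTTGT), the TCF sequence (CTTTGAA or CTTTGAT) and the composite OCT-SOX sequence (TTGTNATG). The SOX and TCF sequences can share the letters CTTTG but no match counts for both, and the OCT-SOX sequence overlaps a SOX match. Only these exact letters were searched, so other forms that either family may bind were not counted. Every CTTTGT was counted as SOX, whichever protein may bind it. The first 3 are the best-ranked site of each class, the next 2 are the best-ranked shared sites at loci of pluripotency regulators and of WNT targets that lie outside exons and do not touch a coding exon of Tcf7l1, Tfap2a or Tfap2c, and the last 3 were chosen after their values were seen.
Shared site 1, in an intron at chr9:97477073-97477273: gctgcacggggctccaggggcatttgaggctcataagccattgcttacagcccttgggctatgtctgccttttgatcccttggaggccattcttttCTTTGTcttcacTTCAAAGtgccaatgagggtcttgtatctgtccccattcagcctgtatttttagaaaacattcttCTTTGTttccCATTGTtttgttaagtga
SOX2-only site 1, beside Slc16a13 at chr11:70221044-70221244: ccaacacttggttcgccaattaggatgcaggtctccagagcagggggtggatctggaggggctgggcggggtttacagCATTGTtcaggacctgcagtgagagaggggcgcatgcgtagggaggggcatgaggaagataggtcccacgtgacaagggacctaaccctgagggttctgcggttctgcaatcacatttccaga
β-catenin-only site 1, between genes near Lamp1 at chr8:13149952-13150152: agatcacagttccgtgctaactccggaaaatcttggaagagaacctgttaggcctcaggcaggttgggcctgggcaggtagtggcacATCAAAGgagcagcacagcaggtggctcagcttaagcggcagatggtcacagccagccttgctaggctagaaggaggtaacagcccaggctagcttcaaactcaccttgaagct
Klf2 shared site, chr8:72316151-72316351: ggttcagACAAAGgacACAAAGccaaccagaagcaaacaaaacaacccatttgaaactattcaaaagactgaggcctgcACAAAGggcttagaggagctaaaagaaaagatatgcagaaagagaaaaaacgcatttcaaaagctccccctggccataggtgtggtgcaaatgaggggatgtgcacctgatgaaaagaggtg
Fzd10 shared site, chr5:128600425-128600625: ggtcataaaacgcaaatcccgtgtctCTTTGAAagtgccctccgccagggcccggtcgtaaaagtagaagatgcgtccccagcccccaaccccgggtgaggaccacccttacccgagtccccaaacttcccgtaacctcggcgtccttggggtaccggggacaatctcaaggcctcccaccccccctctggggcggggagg
Myc shared site, chr15:61978988-61979188: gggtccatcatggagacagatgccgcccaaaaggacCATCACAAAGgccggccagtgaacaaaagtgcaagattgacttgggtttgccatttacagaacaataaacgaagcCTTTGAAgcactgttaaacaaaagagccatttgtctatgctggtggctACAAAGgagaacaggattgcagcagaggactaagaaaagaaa
SOX2-only site 3, in an intron at chr11:44841797-44841997: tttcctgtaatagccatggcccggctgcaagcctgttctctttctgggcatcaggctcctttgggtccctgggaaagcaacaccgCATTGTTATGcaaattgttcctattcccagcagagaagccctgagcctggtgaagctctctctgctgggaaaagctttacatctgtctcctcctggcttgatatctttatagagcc
β-catenin-only site 5, in an intron of Tcf7l2 at chr19:55792636-55792836: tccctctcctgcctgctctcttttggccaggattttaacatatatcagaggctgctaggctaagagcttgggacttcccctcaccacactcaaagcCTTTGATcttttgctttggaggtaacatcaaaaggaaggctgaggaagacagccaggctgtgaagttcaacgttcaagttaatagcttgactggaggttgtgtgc

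Shared site 1 held 3 SOX matches, the nearest 1 bp before the centre, and a TCF match on the minus strand 11 bp after it. SOX2-only site 1 held 1 SOX match and no TCF match, and β-catenin-only site 1 held 1 TCF match and no SOX match. The Klf2 site, 2782 bp from the start of this pluripotency factor gene, held 3 SOX matches and no TCF match. At the Myc site a TCF match lay 14 bp after the centre between SOX matches at 57 bp before it and 62 bp after it, the first of them overlapping an OCT-SOX match. SOX2-only site 3 held an OCT-SOX match, and the Tcf7l2 site held a TCF match 1 bp before its centre. The Fzd10 site held a TCF match 71 bp before its centre and no SOX match in this window. There the mean summit offset from the centre was 188 bp for SOX2 and −198 bp for β-catenin, so the 2 targets peaked at separate places within 1 merged site.

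The 6 deposited lists differed in length. The SOX2 lists held 907862, 136687 and 107016 peaks in replicates 1 to 3, and the β-catenin lists 49737, 222062 and 76699. SOX2 replicate 1 stood apart: its list was the longest and its Jaccard index (the base pairs that 2 lists share, divided by those in either) with the other SOX2 libraries was 0.211 and 0.203, against 0.363 between SOX2 replicates 2 and 3. β-catenin replicate 2 shared less with its own target (0.266 and 0.263) than replicates 1 and 3 did with each other (0.433). Both libraries stayed in the main values. Without SOX2 replicate 1, 49.6% of β-catenin sites were also SOX2 sites, against 54.2% with it. Two-sided exact permutation tests of 3 against 3 libraries cannot go below p = 0.1, so no comparison of the 2 targets could pass 0.05.

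Most strong peaks of either protein coincided with a peak of the other. Of the 500 best β-catenin peaks, 90.0% ± 1.14 (SD, n = 3) overlapped a SOX2 peak of the 20000-peak lists, averaged over the 3 SOX2 libraries. Of the 500 best SOX2 peaks, 95.9% ± 3.45 overlapped a β-catenin peak. Overlap was lower further down the lists: it was 70.0% ± 2.82 for the best 5000 β-catenin peaks and 37.1% ± 8.46 for all 20000, and for SOX2 72.2% ± 8.73 and 37.1% ± 7.50. SOX2 replicate 1 (28.5% of 20000) and β-catenin replicate 2 (27.7%) were the lowest of their targets at 20000 peaks, while the other 4 libraries lay between 39.6% and 44.1%.

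**Figure D1:**
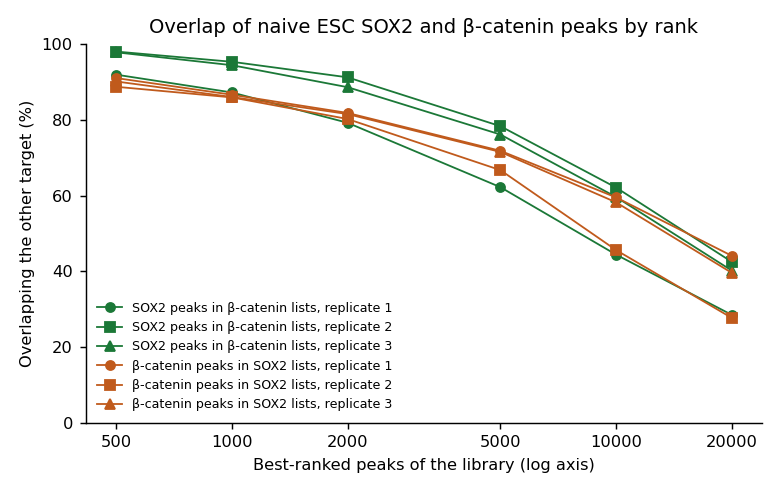
Percent of the best-ranked peaks of each naive ESC library that overlapped a peak of the other target (y axis, mean over the 3 lists of 20000 peaks), against the number of best peaks taken (x axis, log scale). Lines are libraries: at 500 peaks all 6 lie between 88.7% and 98.0%, and at 20000 between 27.7% and 44.1%.

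Of the 13955 β-catenin sites, 54.2% were shared, 28.2% had no SOX2 peak and at 17.6% a single SOX2 library had a peak. Of the 13416 SOX2 sites, 56.4% were shared, 27.8% had no β-catenin peak and 15.9% had one in 1 of 3 libraries. At the edge of the rule, 1322 shared sites had exactly 2 of 3 libraries of each target, and 2130 SOX2 sites and 2459 β-catenin sites were left out because 1 library of the other target had a peak. All 6 libraries had a peak at 3295 sites (5.24% of the merged sites). Shared sites were the stronger ones: the median fold over background of SOX2 was 15.5, 12.6 and 12.0 in the 3 replicates at shared sites and 12.3, 8.11 and 7.76 at SOX2-only sites. The median β-catenin fold was 14, 10.6 and 12.0 at shared sites and 8.81, 7.92 and 7.92 at β-catenin-only sites.

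A site with 1 target among the best 20000 peaks often held a weaker peak of the other. In the full deposited lists, only 1485 SOX2-only sites (39.9%) had no β-catenin peak in any of the 3 lists, and 5.94% had one in all 3. Of the β-catenin-only sites, 654 (16.6%) had no SOX2 peak in any full list, and the share with a peak in SOX2 replicates 1, 2 and 3 was 65.4%, 48.2% and 36.0%, in the order of the lengths of those lists. The single-target classes are thus classes of relative strength, and the 6 best-ranked sites of each single-target class below were taken only from sites with no peak in any full list of the other target.

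Lists of the same target were more alike than lists of different targets. The mean Jaccard index was 0.290 for the 6 pairs within a target and 0.218 for the 9 pairs between targets (difference 0.0718, exact permutation p = 0.10, the smallest possible, adjusted p = 0.214 over 15 tests). The highest pair of unlike targets, SOX2 replicate 2 with β-catenin replicate 1 at 0.310, exceeded 4 of the 6 pairs of the same target. The difference was 0.158 with 5000 peaks per library, 0.0201 with all deposited peaks and 0.037 without replicate 3.

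Where both proteins had a peak in all 6 libraries, their summits nearly coincided. The mean SOX2 summit and the mean β-catenin summit lay a median of 26.3 bp apart over the 3295 sites, within 50 bp at 72.8% of them and over 100 bp apart at 385 sites (11.7%). Pairs of libraries of different targets had a mean of their median distances of 38.7 bp and pairs of the same target 34.2 bp, so the excess over the replicate error of a summit was 4.50 bp (exact permutation p = 0.10, adjusted p = 0.214).

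β-catenin summits lay closer to the TCF sequence than SOX2 summits did, while both lay near the SOX sequence. Over the 1222 of these sites with a TCF match within 250 bp of the mean summit, the median distance from summit to match was 82.5, 72.0 and 73.0 bp for SOX2 and 48.5, 56.0 and 51.0 bp for β-catenin. All 3 β-catenin libraries lay closer to the TCF sequence than any SOX2 library, by a mean of 24.0 bp (exact permutation p = 0.10, adjusted p = 0.214). For the SOX sequence, with a match at 2574 sites, the distances were 43.0, 35.0 and 34.0 bp for SOX2 and 42.0, 48.0 and 44.0 bp for β-catenin, and SOX2 replicate 1 lay within the range of the β-catenin libraries (difference 7.33 bp, exact permutation p = 0.200, adjusted p = 0.300). The mean over the 3 β-catenin libraries was 44.7 bp to the SOX and 51.8 bp to the TCF sequence, each over its own set of sites. These 2 means cannot be compared, because the SOX sequence is the more common one. Windows 5000 bp from all merged sites held a SOX match within 100 bp at 26.5% and a TCF match at 8.43%.

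**Figure D2:**
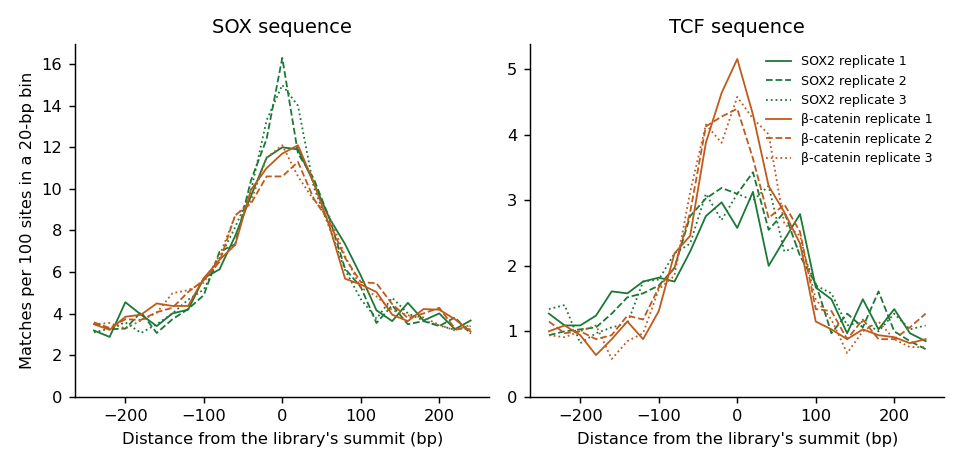
Matches to the SOX sequence (left) and the TCF sequence (right) per 100 sites in bins of 20 bp (y axis) against the distance in bp from the summit of each library (x axis), over the 3295 sites with a peak in all 6 libraries. At the summit the 3 β-catenin libraries reach 4.40 to 5.16 TCF matches per 100 sites and the 3 SOX2 libraries 2.58 to 3.10, while for SOX matches the values are 10.6 to 12.1 and 12.0 to 16.3.

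The sequence content of whole lists followed the same division. A TCF match within 100 bp of the summit was present in 34.6%, 23.4% and 31.1% of β-catenin peaks and in 11.6%, 14.6% and 13.2% of SOX2 peaks, against 8.05% to 8.50% in windows 5000 bp away. The 2 groups did not overlap and differed by 16.6 percentage points (exact permutation p = 0.10, adjusted p = 0.214), by 28.8 points with 5000 peaks per library and by 7.63 points with all deposited peaks. A SOX match was present in 47.4%, 57.6% and 55.8% of SOX2 peaks and 47.4%, 38.0% and 43.3% of β-catenin peaks, against 25.9% to 26.9% 5000 bp away (difference −10.7 points, exact permutation p = 0.200, adjusted p = 0.300, against −6.25 points without replicate 2 and −3.14 points with all deposited peaks). The 5 other sequences searched on both strands, OCT-SOX, OCT (ATGCAAA), KLF (GGGNGTG), ESRRB (AAGGTCA) and AP2 (GCCNNNGGC), had differences between −2.15 and 1.17 points with overlapping libraries, and exact permutation p-values from 0.300 to 0.700.

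The classes separated more sharply than the lists. The TCF sequence was found at 56.4% of β-catenin-only sites (2217 of 3933), at 24.4% of shared sites and at 4.11% of SOX2-only sites (153 of 3723), against 17.8% of all merged sites. Windows 5000 bp away held it at 8.27% for the SOX2-only class, so these sites had fewer TCF matches than their own surroundings (4.11%, 95% Wilson interval 3.52 to 4.80%, which covers counting error only). The SOX sequence was found at 61.4% of SOX2-only, 59.4% of shared and 34.5% of β-catenin-only sites, against 43.1% of all merged sites and 25.9% beside the β-catenin-only sites. Shared and SOX2-only sites were thus close in SOX content and far apart in TCF content.

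The OCT-SOX sequence was about as frequent at both classes with SOX2: 11.4% of shared and 10.5% of SOX2-only sites held it, against 3.03% of β-catenin-only sites, where windows 5000 bp away held 3.28%, and 5.52% of all merged sites. The ESRRB sequence, bound by the pluripotency factor ESRRB, was found at 11.8% of shared, 11.0% of β-catenin-only and 7.06% of SOX2-only sites (7.61% of all merged sites). The OCT sequence was at 11.2%, 7.09% and 8.35% in the same order, and 6.67% overall. KLF and AP2 sequences were between 19.8% and 22.8% and between 10.7% and 13.8% in the 3 classes. Both a SOX and a TCF match were found at 13.2% of shared, 18.8% of β-catenin-only and 2.28% of SOX2-only sites, and 29.4% of shared sites held neither.

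These shares changed stepwise with the number of libraries of the other target. Among β-catenin sites, the TCF share was 56.4%, 42.6%, 29.2% and 21.3% for sites with a SOX2 peak in 0, 1, 2 and 3 SOX2 libraries, while the SOX share was 34.5%, 46.6%, 55.2% and 62.2%. Among SOX2 sites, the TCF share was 4.11%, 8.69%, 13% and 30.3% with 0 to 3 β-catenin libraries, while the SOX share stayed between 58.4% and 62.1%. The sites that the classes leave out, with 1 library of the other target, thus had intermediate TCF shares. No test was made over sites, which are not replicates.

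**Figure D3:**
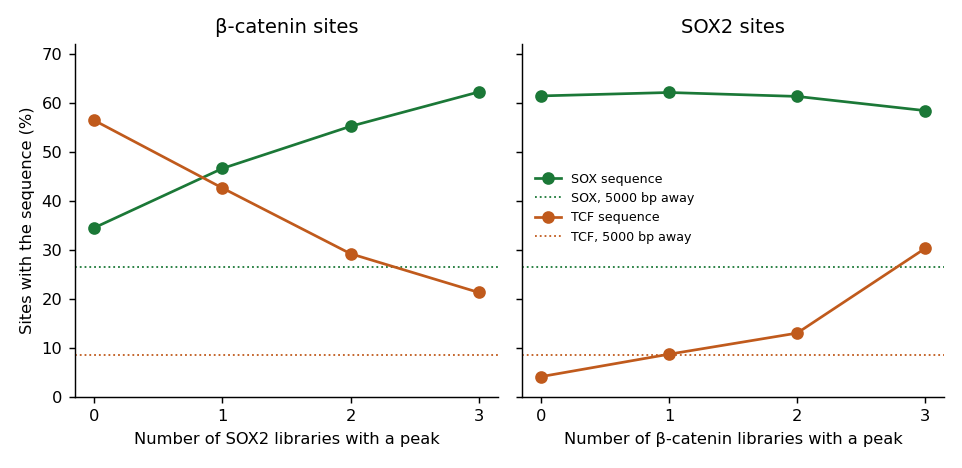
Percent of sites with a SOX or a TCF sequence within 100 bp of the summit (y axis) for β-catenin sites (left) and SOX2 sites (right), by the number of libraries of the other target with a peak (x axis), with dotted lines for windows 5000 bp from all merged sites. Among β-catenin sites the TCF share is 56.4% at 0 and 21.3% at 3 SOX2 libraries, and among SOX2 sites it is 4.11% at 0 and 30.3% at 3 β-catenin libraries.

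Within shared sites the TCF sequence went with β-catenin strength. The 1846 shared sites with a TCF match had a median β-catenin fold of 20.7, 13.6 and 18, against 12.6, 9.74 and 10.7 at the 5717 without one. The median SOX2 fold at the same sites was 14.3, 11.4 and 10.7 with a TCF match and 15.8, 13 and 12.4 without. SOX2 had the better median rank of the 2 targets at 23.2% of shared sites with a TCF match and at 64.1% of those without, against 54.1% of all shared sites. A SOX match had a smaller difference: SOX2 folds were 16.2, 13.4 and 12.7 with it and 14.6, 11.7 and 11.2 without, and β-catenin folds were 13.9, 10.6 and 11.9 with it and 14.3, 10.6 and 12.2 without.

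SOX2-only sites of the 20000-peak lists were nearer to gene starts. Of them, 19.7% (733 sites) lay within 1 kb of the start of a protein-coding gene, against 4.61% of shared sites (349), 6.53% of β-catenin-only sites (257) and 8.33% of all merged sites. With classes made from all deposited peaks this was lost, with 8.68% of SOX2-only, 8.42% of shared and 6.23% of β-catenin-only sites within 1 kb. The median distance to a start in the 20000-peak classes was 17.2 kb for SOX2-only, 31.5 kb for shared and 29.4 kb for β-catenin-only sites. Over whole lists, 9.84%, 9.21% and 9.69% of SOX2 peaks and 6.91%, 4.20% and 6.05% of β-catenin peaks lay within 1 kb (difference −3.86 points, exact permutation p = 0.10, adjusted p = 0.214), and with all deposited peaks this difference turned to 0.956 points (exact permutation p = 0.900). The SOX2-only sites near starts had a median GC content of 60.7% and a SOX match at 55.3%, and those beyond 1 kb 48.3% and 62.9%. Shared sites lay in introns (42.9%) or between genes (54.5%), with 2.57% in exons.

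The nearest genes of the 3 classes overlapped in part, and no background was computed for the overlaps. All merged sites had 14846 different nearest protein-coding genes. Shared sites had 4651, SOX2-only sites 3126 and β-catenin-only sites 3001. Of the nearest genes of SOX2-only sites, 42.3% were also nearest to a shared site, and of those of β-catenin-only sites 50.1%. SOX2-only and β-catenin-only sites had 845 nearest genes in common, which was 27.0% of the first list and 28.2% of the second.

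The LEF1, TCF7L1 and TCF7L2 libraries of naive ESC had no part in the classes and were used to ask which classes carry TCF/LEF proteins. TCF7L1 covered 82.4%, 91.0% and 93.8% of shared sites in its 3 replicates, 62.7%, 75.2% and 77.3% of β-catenin-only sites and 9.64%, 12.0% and 15.3% of SOX2-only sites. The best 20000 TCF7L1 peaks were thus found at most sites of both classes with β-catenin and at few SOX2-only sites. Weaker TCF7L1 peaks of the full lists were not counted here, so a site left uncovered may still hold one. TCF7L2 covered 14.5%, 31.2% and 16.4% of shared, 7.75%, 16.2% and 7.70% of β-catenin-only and 5.10%, 5.56% and 3.68% of SOX2-only sites. LEF1 covered 2.08%, 52.1% and 18.2% of shared sites, 1.47%, 22.8% and 7.48% of β-catenin-only sites and 0.242%, 4.41% and 1.91% of SOX2-only sites. LEF1 replicates 1 and 3 were doubtful lists: in replicate 1 the median peak was 55.0 bp wide, and in replicate 3 as many as 19564 peaks had the same −log10 p-value at the limit of 20000.

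Coverage was higher at shared than at SOX2-only sites in 9 of 9 TCF/LEF libraries, by a mean of 38.2 points (exact permutation of signs over 9 libraries, p = 0.00391, the smallest possible, adjusted p = 0.00781 over 4 tests). It was higher at shared than at β-catenin-only sites in 9 of 9 libraries, by 13.7 points (exact permutation p = 0.00391, adjusted p = 0.00781). The 9 libraries are 3 replicates of each of 3 proteins, scored on the same sites. Both tests treat them as independent, so these p-values reflect agreement of sign alone. For TCF7L1, LEF1 and TCF7L2 the mean difference from SOX2-only sites was 76.8, 22.0 and 16.0 points. From β-catenin-only sites it was 17.3, 13.5 and 10.2 points. Shared sites were also wider (median 716 bp, against 439 bp and 392 bp) and better ranked, and 2 alternatives chosen after the data were seen addressed this in part. In windows of 100 bp on each side of the summit the differences were 37.8 and 12.9 points with the same p. Among sites with a median rank between 5000 and 15000, the difference from SOX2-only sites was 27.6 points (adjusted exact permutation p = 0.0156), while that from β-catenin-only sites was 3.97 points and no longer passed (exact permutation p = 0.0547, adjusted p = 0.0729). In that band TCF7L1 covered 69.1%, 83.9% and 88.9% of shared, 62.0%, 76.9% and 78.8% of β-catenin-only and 9.59%, 11.8% and 14.8% of SOX2-only sites.

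**Figure D4:**
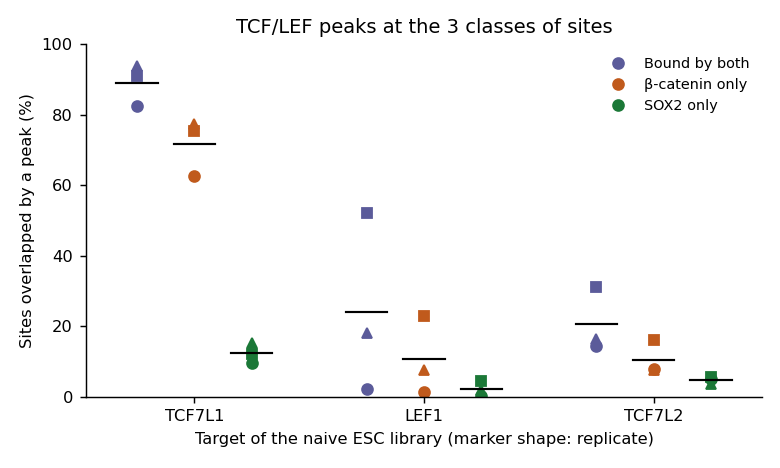
Percent of the sites of each class overlapped by a peak of each naive ESC TCF7L1, LEF1 and TCF7L2 library (y axis), with the marker shape giving the replicate (circle 1, square 2, triangle 3) and black lines the means of 3. TCF7L1 covers 82.4% to 93.8% of sites bound by both, 62.7% to 77.3% of β-catenin-only and 9.64% to 15.3% of SOX2-only sites.

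TCF7L1 was present at sites with and at sites without a match to the TCF sequence as defined here. Other forms of the sequence were not searched, so a site without a match may still hold one. At shared sites without a TCF match within 100 bp, TCF7L1 covered 78.9%, 88.9% and 92.3%, and with one 93.2%, 97.4% and 98.5%. At β-catenin-only sites the values were 50.1%, 63.2% and 67.2% without and 72.5%, 84.5% and 85.1% with a TCF match. The few SOX2-only sites with a TCF match were covered at 17.6%, 24.8% and 26.8%. TCF7L2 had another pattern, which was not particular to SOX2-only sites. In every class and replicate its coverage was higher within 1 kb of a gene start than beyond, while that of TCF7L1 was lower. At SOX2-only sites TCF7L2 covered 16.9%, 16.6% and 12.1% within 1 kb and 2.21%, 2.84% and 1.61% beyond. TCF7L1 covered 6.82%, 3.27% and 6.82% of these sites within 1 kb and 10.3%, 14.1% and 17.4% beyond. For β-catenin-only sites the TCF7L2 values were 28.8%, 31.5% and 22.2% within 1 kb and 6.28%, 15.1% and 6.69% beyond. The gap was smaller at shared sites, with 21.5% and 16.2% in TCF7L2 replicate 3.

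The 5 best-ranked shared sites described here had high β-catenin folds, and 4 of them high SOX2 folds too. Shared site 1 had a SOX2 fold of 50.2, 72.8 and 77.0 and a β-catenin fold of 145, 110 and 193, and lay 107215 bp from the nearest protein-coding start, that of Trim42. The shared site nearest to Nxn had SOX2 folds of 48.2, 58.6 and 53.6 and β-catenin folds of 115, 62.1 and 111. The shared sites nearest to Vwa3b and Ephb1 had SOX2 folds from 47.0 to 80.7 and β-catenin folds from 56.4 to 140. The shared site nearest to Tas1r2 was the exception: SOX2 reached 11.3 and 6.39 in replicates 1 and 2 with no peak in replicate 3, while β-catenin reached 142, 76.0 and 121, and its 201 bp held a TCF but no SOX match. All 5 had peaks in all 3 libraries of TCF7L1 and of TCF7L2. None of the 5 lay within 1 kb of a gene start.

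The best-ranked single-target sites were weaker. The 6 SOX2-only sites, chosen from the 1448 with no β-catenin peak in any full list outside the excluded regions, had SOX2 folds from 11.5 to 26.7. Site 1 lay 80 bp from the start of Slc16a13, with folds of 23.3, 11.5 and 14.7, site 2 lay 123 bp from that of Ireb2, an iron regulator, with 24.0, 17.0 and 13.5, site 4 lay 491 bp from Zfp646 and site 6 lay 32 bp from G3bp2. Thus 4 of the 6 lay within 1 kb of a gene start, against 19.7% of all SOX2-only sites, and 6 sites picked by rank do not stand for the class. Site 3, in an intron with the OCT-SOX match shown above, had folds of 20.7, 19.4 and 23.7 and lay 224580 bp from the start of Ebf1, a B-cell factor gene, and site 5 was nearest to Snx11.

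The 6 β-catenin-only sites, from 636 with no SOX2 peak in any full list, had β-catenin folds from 12.8 to 39.2. Site 1, 9109 bp from Lamp1, had 20.0, 20.9 and 24.1. Site 5 lay in an intron of Tcf7l2, which encodes a partner of β-catenin, with folds of 25.6, 23.2 and 25.7. The others were nearest to Ebf4, Cmc1, Gm17332 and Dtx3l. All 6 had a TCF7L1 peak in 3 of 3 libraries, 5 of the 6 held a TCF match and 1 held a SOX match. None of the 6 lay within 1 kb of a gene start.

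Of the 6 gene lists described here, pluripotency regulators had the highest share of genes with a shared site. All 6 lists were chosen with earlier results of these data known, and all genes were not matched to them in expression. The shares are therefore descriptions and not independent support. Each gene was given a locus, its body plus the 10 kb before its start, and 15.3% of all 21938 protein-coding loci held a shared site, 12.0% a SOX2-only site and 10.1% a β-catenin-only site. Of 40 pluripotency regulators, 34 (85.0%) held a shared site, 12 a SOX2-only and 12 a β-catenin-only site. The median locus was 25.7 kb long, against 27.4 kb for all genes. The 6 without a shared site were Pou3f1, Utf1, Lin28b, Stat3, Klf5 and Dppa4. SOX2 had the better rank at 42 of the 66 shared sites in these loci (63.6%), against 54.1% of all shared sites.

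The shared site at Klf2, a naive pluripotency factor, had SOX2 folds of 41.3, 65.4 and 81.7 and β-catenin folds of 42.2, 31.2 and 63.7. At Pou5f1, which encodes OCT4, the site 1967 bp from the start (chr17:35503793-35504397) had SOX2 folds of 63.3, 42.5 and 36.1 and β-catenin folds of 35.5, 14.3 and 24.9, with ranks of 7, 70 and 128 in the SOX2 lists. At Nanog the site 68 bp from the start had 26.6, 21.0 and 19.4 for SOX2 and 19.8, 12.5 and 15.3 for β-catenin. In these 3 loci SOX2 and β-catenin peaks were present in all 6 libraries.

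Tfcp2l1, a target of LIF and WNT signalling in naive cells, had SOX2 folds of 36.7, 43.9 and 33.1 and β-catenin folds of 72.3, 40.4 and 71.1 at a site 2288 bp from its start. The β-catenin fold was the higher one in replicates 1 and 3, and the SOX2 fold in replicate 2. Prdm14, which represses differentiation genes, had 34.5, 31.2 and 25.2 for SOX2 and 55.2, 36.1 and 56.6 for β-catenin. Esrrb had its best shared site in an intron 140726 bp from the start counted here, with 42.7, 22.3 and 22.8 for SOX2 and 28.9, 18.7 and 24.2 for β-catenin. The LIF receptor subunit genes Il6st and Lifr had SOX2 folds of 36.1, 46.8 and 41.5 and of 29.1, 30.4 and 20.7, and β-catenin folds of 29.0, 25.5 and 37.8 and of 50.8, 27.5 and 44.0.

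Weaker shared sites were found at Sox2 and Zfp42. At Sox2 the site 4016 bp from the start had a SOX2 peak in replicates 2 and 3 (folds 8.41 and 11.6) and a β-catenin peak in replicates 1 and 3 (7.44 and 6.17). At Zfp42, a marker of naive cells, SOX2 replicates 2 and 3 reached 11.2 and 12.0, and β-catenin replicates 1 and 2 reached 5.06 and 5.61. Klf4 had SOX2 folds of 23.3, 7.64 and 10.7 and β-catenin folds of 25.8 and 14.8 in replicates 1 and 3. The other pluripotency regulators with a shared site had their best one at median ranks between 374 and 7280. Among them Rif1, a telomere and replication factor gene, had SOX2 folds of 47.4, 61.6 and 43.4 and β-catenin folds of 36.2, 19.5 and 31.4, and Otx2, a regulator of the exit from naive pluripotency, had 22.5, 24.7 and 29.2 and 10.4, 14.2 and 12.0. At Dppa3, a germline and naive marker, the values were 33.1, 47.9 and 25.7 and 44.0, 26.4 and 36.5. At Gbx2 SOX2 had peaks in replicates 2 and 3 only (9.29 and 8.20), and β-catenin reached 21.2, 12.2 and 18.4.

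WNT targets and feedback genes held β-catenin-only sites about as often as shared ones. Of 36 such genes, 17 (47.2%) held a shared site, 18 (50%) a β-catenin-only site, against 10.1% of all protein-coding genes, and 7 a SOX2-only site, while 13 held no site of any class. Their loci had a median of 39.8 kb. Of their 35 shared sites, 19 had the better rank for β-catenin, and the median rank was 5110 for SOX2 and 2645 for β-catenin.

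Tcf7l1, which encodes the repressive TCF, had the highest SOX2 folds among the best shared sites of the 17 genes: at a site 1721 bp from its start SOX2 reached 68.2, 59.0 and 57.3 and β-catenin 29.6, 12.5 and 23.9. This site touches a coding exon of Tcf7l1, and β-catenin replicate 1 had 8 peaks over such exons against 0 and 2 in replicates 2 and 3. At Fzd10, a WNT receptor gene, SOX2 reached 33.2, 21.7 and 26.8 and β-catenin 50.8, 21.2 and 27.2, with the separate summits described above. Myc, a growth regulator, had 23.2, 28.2 and 23.5 for SOX2 and 58.9, 23.7 and 42.1 for β-catenin. Lgr5, a receptor gene that enhances WNT signalling, had 16.4, 16.3 and 18.9 and 22.6, 21.7 and 17.1, and its relative Lgr4 had 35.4, 25.0 and 22.9 and 19.3, 16.6 and 14.1.

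β-catenin had the higher fold at several feedback genes. Folds of the 2 targets come from different antibodies, so they do not tell which protein bound more. At the start of Sp5, a WNT-induced repressor, SOX2 reached 10.4, 19.5 and 10.5 and β-catenin 72.1, 29.6 and 62.9. At Lef1 the values were 20.1, 17.3 and 14.7 and 43.4, 26.3 and 40.9. At Axin2, which encodes a scaffold of the β-catenin destruction complex, SOX2 had peaks in replicates 2 and 3 only (8.55 and 7.18), and β-catenin reached 24.4, 13.6 and 26.5. Notum, which encodes a WNT-inactivating enzyme, had the reverse, with 27.7, 28.9 and 21.9 for SOX2 and 15.6, 8.66 and 12.5 for β-catenin. Ctnnb1, the β-catenin gene itself, had a weak shared site, with SOX2 folds of 12.7 and 6.31 in replicates 1 and 2 and β-catenin folds of 5.64 and 6.96 in the same replicates.

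β-catenin-only sites at WNT genes included gene starts. The following were chosen after their values were seen, and were classed on the best 20000 peaks alone, so a weaker SOX2 peak in a full list was not excluded. At Ccnd1, which encodes cyclin D1, a site 15 bp from the start had β-catenin folds of 23.9, 10.1 and 13.4 and no SOX2 peak among the best 20000 of any library. At Tcf7 a site 376 bp from the start had 14.4, 9.13 and 17.5, and at Nkd1, a WNT antagonist gene, one 125 bp from the start had 15.6 and 14.5 in replicates 1 and 3. Znrf3, which encodes an enzyme that removes WNT receptors, held 7 β-catenin-only sites, the best of them with 15.1, 14.2 and 16.9.

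The other gene lists were less uniform. Of 36 caudal epiblast and primitive streak genes, 14 (38.9%) held a shared site, 5 (13.9%) a SOX2-only and 8 (22.2%) a β-catenin-only site, against 15.3%, 12.0% and 10.1% of all protein-coding genes. Of 20 FGF and ERK feedback genes, 11 (55.0%) held a shared, 7 (35.0%) a SOX2-only and 6 (30.0%) a β-catenin-only site. Of 30 neural and SOX family genes, 10 (33.3%) held a shared site, 7 (23.3%) a SOX2-only and 1 (3.33%) a β-catenin-only site. Housekeeping genes were near the background of all genes: 3 of 20 (15%) held a shared site, 4 a SOX2-only and 3 a β-catenin-only site. Cdx2, a caudal regulator chosen after its values were seen, held a shared site in an intron with SOX2 folds of 17.6, 26.6 and 27.3 and β-catenin folds of 104, 70.8 and 109.

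The naive ESC sites were then followed in the other conditions, with SOX2 lists of 20000 and β-catenin lists of 3423 peaks, the length of the shortest β-catenin list. SOX2 peaks of SOX2-ON cells covered 47.5%, 48.4% and 50% of shared sites and 35.1%, 36.9% and 37.2% of SOX2-only sites. In CEpiLC the values were 42.9%, 37.4% and 38.0% of shared and 45.6%, 36.2% and 41.9% of SOX2-only sites, and in SOX2-OFF cells 24.3%, 29.8% and 33.6% and 17.2%, 27.6% and 21.9%. Over the 9 libraries the mean difference was 5.81 points, positive in 7 of 9 (exact permutation of signs p = 0.0469, adjusted p = 0.0625). This test pools 3 conditions, whose mean differences were 12.2 points in SOX2-ON, −1.78 in CEpiLC and 6.98 in SOX2-OFF. In the band of median ranks from 5000 to 15000 the mean difference over the 9 libraries was −3.21 points.

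For β-catenin peaks the sign of the difference varied between conditions. In SOX2-ON cells they covered 21.9%, 23.3% and 22.8% of shared sites and 10.1%, 10.1% and 11.2% of β-catenin-only sites. In CEpiLC they covered 14%, 12.9% and 11.6% of shared and 14.7%, 15.6% and 15.4% of β-catenin-only sites, and in SOX2-OFF cells 13%, 12.9% and 13.5% and 15.6%, 13.2% and 16.6%. Over all 9 libraries the mean difference was 2.62 points (exact permutation p = 0.281, adjusted p = 0.281). The difference in SOX2-ON exceeded that in CEpiLC by 14.6 points and that in SOX2-OFF by 14.2 points (exact permutation p = 0.10 each, the smallest possible, adjusted p = 0.133 over 4 tests). These 2 comparisons share the SOX2-ON libraries and were not among the planned tests. The mean difference was 12.2 points in SOX2-ON, −1.97 in SOX2-OFF and −2.40 in CEpiLC. SOX2-ON and SOX2-OFF cells are of 1 line and CEpiLC of another, and a cause was not tested. In the band of median ranks from 5000 to 15000 the mean difference over 9 libraries was −3.72 points (exact permutation p = 0.0312, adjusted p = 0.0625), and SOX2-ON peaks there covered 9.52% to 9.77% of shared and 7.84% to 8.50% of β-catenin-only sites.

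**Figure D5:**
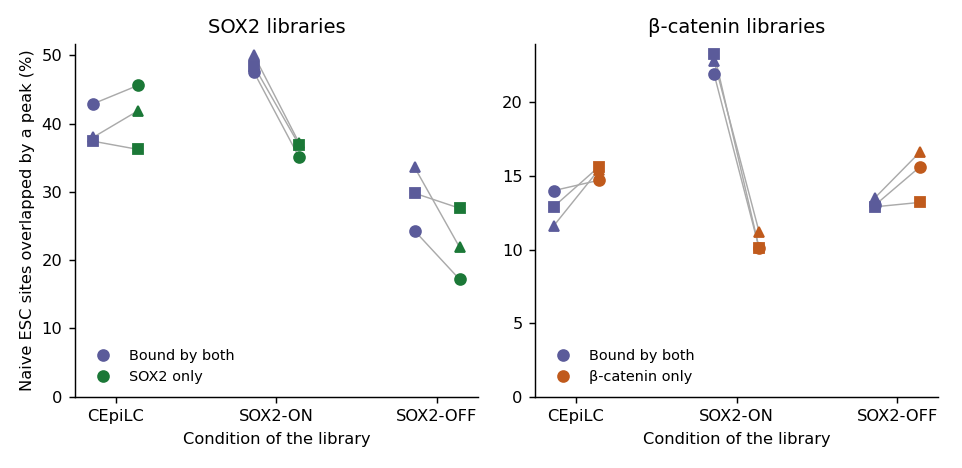
Percent of naive ESC sites overlapped by a SOX2 peak (left, shared and SOX2-only sites) or a β-catenin peak (right, shared and β-catenin-only sites) of each library of CEpiLC, SOX2-ON and SOX2-OFF (y axis), with the marker shape giving the replicate (circle 1, square 2, triangle 3) and grey lines joining values of 1 library. β-catenin covers 21.9% to 23.3% of shared sites in SOX2-ON and 11.6% to 14% in CEpiLC and SOX2-OFF.

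Co-occupancy itself was compared as the share of the best 3423 β-catenin peaks of a library that overlapped a SOX2 peak of the same condition. It was 76.4%, 74.0% and 76.5% in naive ESC (75.6% ± 1.42, SD, n = 3), 73.5%, 67.0% and 64.7% in CEpiLC, 75.3%, 73.8% and 67.8% in SOX2-ON and 55.0%, 49.9% and 56.5% in SOX2-OFF. All 3 naive ESC libraries exceeded all SOX2-OFF libraries, by a mean of 21.8 points, and all CEpiLC libraries, by 7.20 points (exact permutation p = 0.10 for each, adjusted p = 0.214). Naive ESC and SOX2-ON overlapped (difference 3.30 points, exact permutation p = 0.200, adjusted p = 0.300). These 3 comparisons share the naive ESC libraries. Without replicate 2 of every group the difference from CEpiLC was −0.643 points, and from SOX2-ON −1.04 points, while that from SOX2-OFF stayed positive at 9.63 points. With 2000 peaks per library for both targets the difference from SOX2-OFF was 5.06 points (exact permutation p = 0.10), from CEpiLC 7.81 points and from SOX2-ON 0.344 points.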

How the data were processed

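The 64 samples comprised 60 immunoprecipitated libraries with a peak list and 4 inputs, and the sources used here do not say which input went with which library. Of the lists, 33 were used. According to the study's methods and the labels, the authors aligned reads with BWA to mm10 in the nf-core ChIP-seq pipeline and called narrow peaks with MACS2 in each library separately, without pooling replicates. Each deposited peak carried a score (10 times its −log10 q-value), a fold (the ratio of signal to local background at the summit, computed for the authors by MACS2), a −log10 p-value and, in another deposited column, a −log10 q-value. The authors' peak-level values were used here only to rank or describe peaks. The depth behind each peak is unknown, since no reads are counted in these files.

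Peaks on the main chromosomes were ranked by −log10 p-value, with ties ordered by fold, and the best 20000 were kept per library. Sites, classes, sequences and gene loci (GENCODE vM21 annotation of GRCm38, the same assembly as mm10) were computed in Python 3.11.15 with NumPy 2.4.6 and pandas 2.3.3. Coverage is the percent of sites overlapping a peak by at least 1 bp. Groups were compared by two-sided exact permutation tests, with Benjamini-Hochberg adjustment over 15 relabelling tests and over 4 sign-change tests. Sites are not replicates and were not tested. The class functions were tested on simulated data. No list repeated another: the 6 lists shared at most 1 identical interval per pair. The labels call the libraries biological replicates, and the study's methods say that the triplicates of a condition came from separate experiments. Whether same-numbered libraries of the 2 targets shared a culture is not given in the sources used here.

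The members and gene lists were chosen with earlier results of these data known. Named genes were the pluripotency regulators and WNT targets whose locus held a shared site, and in each class the 6 sites with the best median rank, outside chromosome 18 and outside coding exons of Tfap2a, Tfap2c and Tcf7l1, which in β-catenin replicate 1 held 7, 7 and 8 peaks. One site that this rule names is not reported here. The 6 sites of each single-target class had no peak of the other target in any full list. Other single-target sites at WNT genes were chosen after their values were seen. Alternatives changed the list length, ranking, rules for binding, windows and replicates.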

Additional observations from a re-analysis of the deposited data

Results flagged for a closer look

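The difference between shared and β-catenin-only sites in β-catenin coverage was opposite in sign between conditions. It was positive in every SOX2-ON library (11.6 to 13.2 points) and negative in every CEpiLC library (−3.79 to −0.708 points) and every SOX2-OFF library (−3.08 to −0.266 points). The gap between SOX2-ON and CEpiLC was 14.6 points and that between SOX2-ON and SOX2-OFF was 14.2 points, with an exact permutation p of 0.10 for each, the smallest that 3 against 3 libraries allow. Results were flagged here because all libraries of 1 condition lay above 0 and all of another below. That choice fixes this p in advance, so it adds nothing to the values. In the band of median ranks from 5000 to 15000 the coverage of shared and β-catenin-only sites was 9.77% and 7.84%, 9.60% and 8.22%, and 9.52% and 8.50% in the 3 SOX2-ON libraries, and from 5.16% to 6.85% and from 10.3% to 12.8% in the other 6. A cause was not tested.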

How the results depend on the processing

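Replicate numbers were shared between the 2 targets. Same-numbered libraries deviated from their target means with correlations of 0.0471, 0.0160 and 0.0463. Libraries of different numbers had correlations from −0.0502 to −0.00197, so the same-number values were small but all above the others. The main tests did not pair the libraries by number, and some shared structure between same-numbered libraries remains possible. With a replicate block, in which the smallest exact p is 0.25, the differences were 0.0773 for the Jaccard index, 3.83 bp for the summit distance, −3.86 points for gene starts, −10.7 and 16.6 points for the SOX and TCF sequences, and −24.0 and 7.33 bp for the distances to them, and no call changed.

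The class counts depended on the list length. With 5000 peaks per library there were 2287 shared, 1497 SOX2-only and 1627 β-catenin-only sites and 50.3% of β-catenin sites were shared. With 10000 there were 4452, 2464 and 2610 sites and 53.2%. With all deposited peaks there were 20709 shared and 40801 SOX2-only sites and 64.5%. Requiring 3 of 3 libraries gave 3295, 898 and 1341 sites and 44.4%, and requiring absence from the full lists gave 1485 SOX2-only and 654 β-catenin-only sites. Merging summit windows gave 52.0%, and leaving out SOX2 replicate 1 alone, an alternative chosen after the data were seen, gave 49.6%, with 6922 shared and 4361 β-catenin-only sites.

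Leaving out 1 replicate number at a time gave 3662 to 4752 shared, 1483 to 3680 SOX2-only and 1794 to 4271 β-catenin-only sites and 36.6% to 60.2%, in part because 2 of 2 libraries were then required. The TCF/LEF coverage differences were 33.7 to 46.6 and 10.6 to 16.8 points, with an adjusted exact p of 0.0625, the smallest that 6 libraries allow after adjustment. Co-occupancy differences ranged from −0.643 to 15.5 points against CEpiLC and from −1.04 to 11.2 points against SOX2-ON, where leaving out replicate 3 gave −0.687. Without LEF1 replicates 1 and 3 the coverage differences were 46.6 and 16.0 points.

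In the band of median ranks from 5000 to 15000 the coverage difference between shared and β-catenin-only sites was 3.97 points, and the differences outside naive ESC were −3.21 points for SOX2 and −3.72 points for β-catenin. With 2000 peaks per library the SOX2 difference outside naive ESC was 7.16 points and passed (adjusted exact permutation p = 0.00521). With all deposited peaks the difference at gene starts turned to 0.956 points. Small differences of other sequences also changed sign: OCT to 0.02 with 5000 peaks, 0.124 with all peaks and 0.232 in windows of 250 bp, and AP2 to −0.160 in windows of 250 bp. With 1 replicate number left out at a time they ranged from −1.50 to 0.697 for OCT, from −0.278 to 1.99 for AP2, from −0.592 to 2.56 for KLF and from −0.338 to 2.49 for ESRRB. The TCF share stayed highest at β-catenin-only and lowest at SOX2-only sites in every alternative run, at 33.8% to 68.4% and 2.04% to 12.5%. Leaving out sites over the coding exons of Tfap2a, Tfap2c and Tcf7l1 removed 2 shared sites. Counting error could not be given for coverage, because read depth is unknown.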

Other observations

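The bulk of the merged sites belonged to 1 library. Of the 62873 sites, 21391 (34.0%) had a peak in 1 SOX2 library and no β-catenin library, and 19370 (30.8%) in 1 β-catenin library and no SOX2 library. A further 2304 sites (3.66%) had 1 library of each target.

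Coverage by the naive ESC TCF/LEF lists went with their own sequence content. A TCF match within 100 bp of the summit was found in 35.9%, 40.1% and 40.1% of the 20000 best TCF7L1 peaks, in 11.3%, 15.8% and 11.8% for TCF7L2 and in 8.12%, 23.0% and 14.1% for LEF1, where windows 5000 bp away held 7.98% to 8.94%. LEF1 replicate 1, at the level of its background, also covered the fewest shared sites (2.08%). TCF7L1 replicate 2 came from a list of 23347 peaks and replicate 1 from one of 660387, and they covered 91.0% and 82.4% of shared sites.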
